A study of Mus musculus with 6 samples.

Results

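Folliculin, its FNIP partners, the Rag GTPases and the TFEB family of transcription factors form a signalling unit on the lysosome surface. The transcript levels of 10 mouse genes of this unit were followed in macrophages: Fnip1, Fnip2 and Flcn, Rraga, Rragc and Rragd, Tfeb, Tfe3 and Mitf, and Ddit4. They were chosen by gene symbol from the 54532 genes measured. All 10 passed the filter on low values, which asked for 1 TPM (a transcript count scaled for gene length and library total) or more in 2 or more of the 6 libraries and left 12755 genes for testing.

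The cells were primary bone-marrow-derived macrophages (BMDMs) of wildtype C57BL/6 mice, grown out with medium conditioned by L929 cells, a fibroblast line that secretes the macrophage growth factor M-CSF. Controls received neither agent (Untr), a second group received 100 ng/ml lipopolysaccharide for 2 h (LPS), and the third was kept in 5 mM metformin during the 6 h that preceded the same LPS stimulation (Met + LPS). LPS is a bacterial wall component sensed by Toll-like receptor 4, and metformin is a diabetes drug that inhibits complex I of the respiratory chain. Each group held 2 libraries of poly-A RNA. The cells were seeded in duplicate, and the labels do not say whether duplicates came from separate mice, so all p-values measure only the spread between these samples, which may be technical. The age and sex of the mice are not given in the sources used here. No library received metformin alone, so the metformin effect was measured only on top of LPS.

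Rag GTPases act as heterodimers of RagA or RagB with RagC or RagD. When amino acids are plentiful they bring mTORC1, the main growth-promoting kinase complex, to the lysosome. Folliculin bound to FNIP1 or FNIP2 switches RagC and RagD into the state in which mTORC1 can phosphorylate TFEB, TFE3 and MITF and so hold them in the cytoplasm. When this control is lost, the factors enter the nucleus and activate genes of lysosomes and autophagy through E-box sequences called CLEAR elements, and in macrophages TFEB and TFE3 are also known for their part in cytokine gene control. DDIT4, also called REDD1, is a stress-induced inhibitor of mTORC1. RNA levels say nothing about where these proteins were or how they were phosphorylated.

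The starts of the genes were examined for the CLEAR core, CACGTG, because the TFEB family binds it. RefSeq (GRCm38.p6) lists 15 promoter windows for the 10 genes, each spanning 250 bases before to 50 bases after an annotated start. CACGTG, which reads the same on both strands, was present in 2 of these 15 windows, that of Fnip1 and that of Rragc, and in 7.15% of all 32851 windows. The sequences below are the 150 bases that end just before the RefSeq start, on the plus strand in both genes, with CACGTG in capitals. The Rragc stretch is chr4:123917283-123917432 and the Fnip1 stretch is chr11:54438029-54438178.
Rragc: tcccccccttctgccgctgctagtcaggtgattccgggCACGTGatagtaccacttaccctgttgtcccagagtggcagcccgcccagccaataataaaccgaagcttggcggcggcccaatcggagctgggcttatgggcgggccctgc
Fnip1: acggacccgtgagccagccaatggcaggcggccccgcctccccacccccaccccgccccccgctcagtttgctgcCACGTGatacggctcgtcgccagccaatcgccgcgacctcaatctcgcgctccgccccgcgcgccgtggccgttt
The core began 112 bases before the start in Rragc and 75 bases before it in Fnip1. In both genes it was followed by the same 3 bases, and this longer match, CACGTGATA, was found in 42 of all windows, counting both strands. Of the other motifs searched on both strands, the M-box core CATGTG was in 14.2% of all windows, the ATF4-type site TGATGNAA in 3.97% and a consensus NF-kB site in 1.63%, and none of these was in a window of the 10 genes. These matches describe letters only, and no binding was measured.

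The libraries held 25457016 to 30762755 reads, as recovered from the TPM values and exon lengths. All 8 macrophage markers were expressed. Those of B cells, fibroblasts and erythroid cells averaged under 1 TPM over the 6 libraries, and of the T cell markers only Cd4 did not. The 4 dendritic cell markers summed to 0.469 to 0.704 TPM in Untr, 2.08 to 2.13 in LPS and 2.06 in both libraries of Met + LPS. Zbtb46 and Xcr1 were higher in the stimulated libraries, as Mitf was, while Flt3 and Cd209a were lower in LPS than in Untr. The 6 neutrophil markers summed to 29.4 to 32.6 TPM in Untr, 26.3 to 27.6 in LPS and 42.8 to 45.2 in Met + LPS, with Ly6g at 0 in all but 1 library. The mast cell list summed to 20.6 to 21.1, 8.00 to 8.18 and 23.2 to 24.4 TPM in the same order. Nearly all of it was Kit, while Mcpt4 and Fcer1a were at 0 in all libraries. The neutrophil and mast cell sums were lowest in LPS, as most of the 10 genes were. Among the neutrophil markers, Elane and Mpo were lower in LPS than in Untr, while S100a9 was higher. The macrophage markers summed to 44621 to 46599 TPM in Untr, 37412 to 37903 in LPS and 30877 to 30948 in Met + LPS. Most of that sum was Lyz2, at 33981 and 35844 TPM in Untr, 26974 and 26696 in LPS and 21203 and 21381 in Met + LPS. Of the 8 markers, Cd14 and Adgre1 were higher in LPS than in Untr. The part of these lists in the results was not tested. In bulk RNA, fewer cells of a type and less RNA per cell cannot be told apart.

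After 2 h of LPS, all 10 genes differed from untreated cells (limma on log2(TPM + 1), Benjamini-Hochberg adjusted p under 0.01 over all tested genes). Flcn, Tfeb and Fnip2 fell the most, by 12.7-fold, 11.96-fold and 9.35-fold, while Mitf rose 5.05-fold and the scarce Ddit4 rose 2.37-fold. Fnip1 and Rragd each fell about 3-fold, Rragc by about 2-fold, and Tfe3 and Rraga by less. Metformin pretreatment left Flcn, Fnip1 and Fnip2 2.87-fold to 2.93-fold above LPS alone, Tfeb 2.39-fold and Rragd 2.07-fold, and it left Ddit4 2.32-fold below. These folds are ratios of mean TPM. Of the 10 genes, 4 passed the fold cut-off of the study in LPS vs. Untr and 6 in Met + LPS vs. LPS. The cut-offs were applied here to limma log2 fold changes on log2(TPM + 1), whereas the study used DESeq2.

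The counts need their background. In LPS vs. Untr, 76.3% of all tested genes passed an adjusted p of 0.01, 16.2% as higher and 60.1% as lower. The 10 of 10 called here, 2 higher and 8 lower, stood against those shares. The cut-off of the study, a log2 fold change of 2 or more in either direction together with that p, was reached by 6.08% of all genes and by 4 of the 10, Fnip2, Flcn, Tfeb and Mitf. In Met + LPS vs. LPS, 32.6% of all genes were called, 14.5% as higher and 18.0% as lower. Of the 10 genes, 9 were called, 7 higher and 2 lower. The study's cut-off for this comparison, 0.7 or more in either direction on the log2 scale, was passed by 8.28% of all genes and by 6 of the 10, Fnip1, Fnip2, Flcn, Rragd, Tfeb and Ddit4. In Met + LPS vs. Untr, 75.1% of all genes were called, 16.3% as higher and 58.8% as lower, and 7 of the 10 were called, 1 higher and 6 lower (3 higher and 4 lower with median-ratio scaling).

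The share of lower calls after LPS depended on the scaling, and TPM values are themselves set to a fixed sum per library. The median log2 fold change of all tested genes was -0.48 in LPS vs. Untr, -0.03 in Met + LPS vs. LPS and -0.48 in Met + LPS vs. Untr. Rescaling the libraries by their median ratio over genes brought the LPS median to -0.01 and turned the calls over all genes from 2069 higher and 7665 lower into 3954 higher and 3480 lower. The 10 genes then split into 3 higher and 6 lower calls. In Met + LPS vs. Untr the same rescaling turned 2082 higher and 7494 lower calls over all genes into 4309 and 3723. The median log2 fold change of the 10 genes was -1.27 in LPS vs. Untr as deposited and -0.75 after rescaling. In Met + LPS vs. LPS it was 0.72 as deposited and 0.74 after rescaling.

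**Figure D1:**
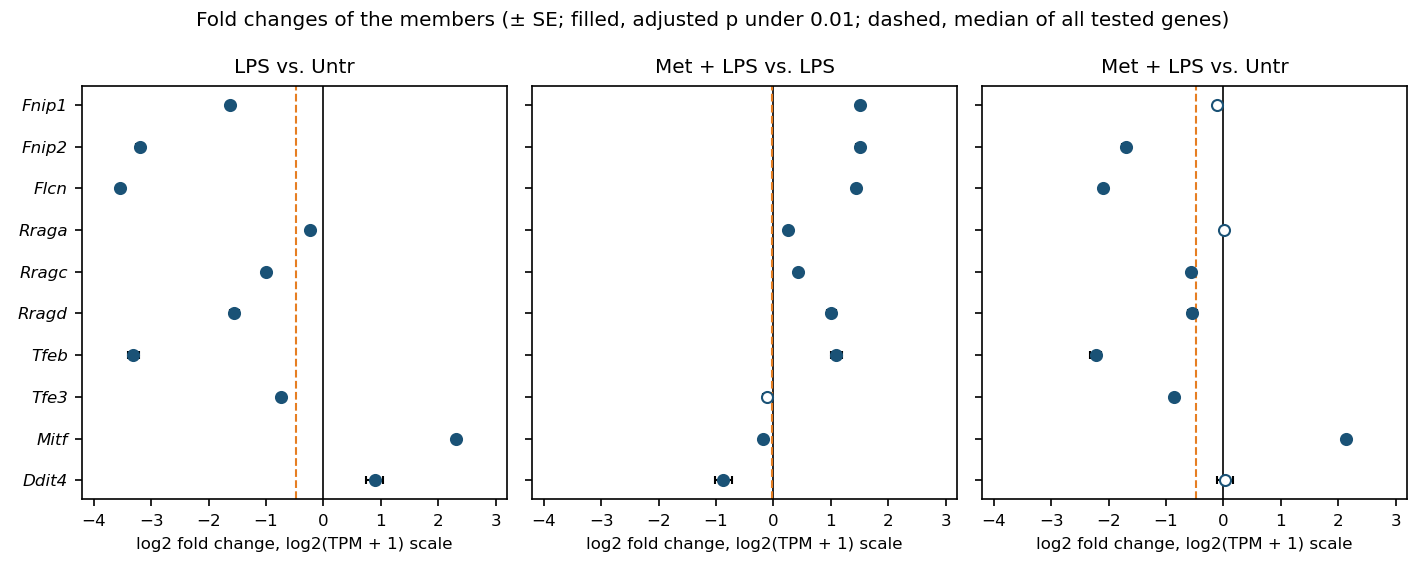
Log2 fold changes of the 10 genes on the log2(TPM + 1) scale (x axis) in the 3 comparisons, with SE from limma. Filled points have an adjusted p under 0.01, open points do not, and the dashed line is the median of all 12755 tested genes, at -0.48, -0.03 and -0.48; Flcn, Tfeb and Fnip2 lie farthest to the left after LPS, and Mitf is the gene farthest to the right.

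Flcn encodes folliculin, the tumour suppressor lost in Birt-Hogg-Dube syndrome and the GTPase-activating subunit for RagC and RagD. The gene (ENSMUSG00000032633) lies on the minus strand at chr11:59791408-59810016 of GRCm38. Flcn stood at 120.1 and 121.8 TPM in Untr, 10.1 and 8.97 TPM in LPS, and 27.3 and 27.9 TPM in Met + LPS. Both untreated libraries were far above the rest, the LPS libraries were the lowest, and no groups overlapped. Its log2 fold change was -3.54 (SE 0.06) in LPS vs. Untr (limma adjusted p = 2.82e-08), or -3.06 relative to the median of all genes. Metformin pretreatment raised it by 1.44 (SE 0.06, limma adjusted p = 1.58e-05), and Met + LPS stayed below Untr, with a log2 fold change of -2.09 (limma adjusted p = 3.61e-07).

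Fnip2 encodes a folliculin-interacting partner that also binds AMPK, the energy-sensing kinase that metformin activates. It lies at chr3:79455974-79567796 on the minus strand (ENSMUSG00000061175). Fnip2 measured 465.5 and 453.5 TPM in Untr, 50.8 and 47.4 TPM in LPS, and 149.1 and 133.2 TPM in Met + LPS. It was the most abundant of the 10 genes in untreated cells and the 4th after LPS, and its groups did not overlap. Its log2 fold change was -3.20 (SE 0.06) with LPS (limma adjusted p = 5.49e-08) and 1.50 (SE 0.06) for metformin on top of LPS (limma adjusted p = 1.61e-05). Met + LPS stayed below Untr, with a log2 fold change of -1.70 (limma adjusted p = 1.03e-06).

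Fnip1, the paralog of Fnip2 with the same partners (chr11:54438199-54518235, plus strand, ENSMUSG00000035992), was less abundant in untreated cells. It stood at 93.2 and 87.5 TPM in Untr, 28.2 and 29.2 TPM in LPS, and 89.1 and 79.1 TPM in Met + LPS. The LPS libraries lay well below the others, while those of Met + LPS overlapped those of Untr. With LPS its log2 fold change was -1.62 (SE 0.06) (limma adjusted p = 1.52e-06) and 1.52 (SE 0.06) for metformin on top of it (limma adjusted p = 1.88e-05). Met + LPS vs. Untr gave -0.10 (SE 0.06, limma adjusted p = 0.18), which turned to 0.44 with median-ratio scaling and 0.40 with voom on the recovered reads, both called.

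The balance of Fnip1 and Fnip2 shifted with LPS. Fnip1 made up 16.4% ± 0.359 (SD, n = 2) of the summed Fnip1 and Fnip2 TPM in Untr, 36.9% ± 1.71 (SD, n = 2) in LPS and 37.3% ± 0.117 (SD, n = 2) in Met + LPS. The sum itself went from 549.8 TPM in Untr to 77.8 in LPS and 225.3 in Met + LPS. The share was lower in each untreated library than in each of the other 4, and it overlapped between LPS and Met + LPS. A share within a library does not depend on how libraries are scaled. With 2 libraries against 2, an exact permutation test cannot give a two-sided p under 0.333, so the shares are given as values.

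**Figure D2:**
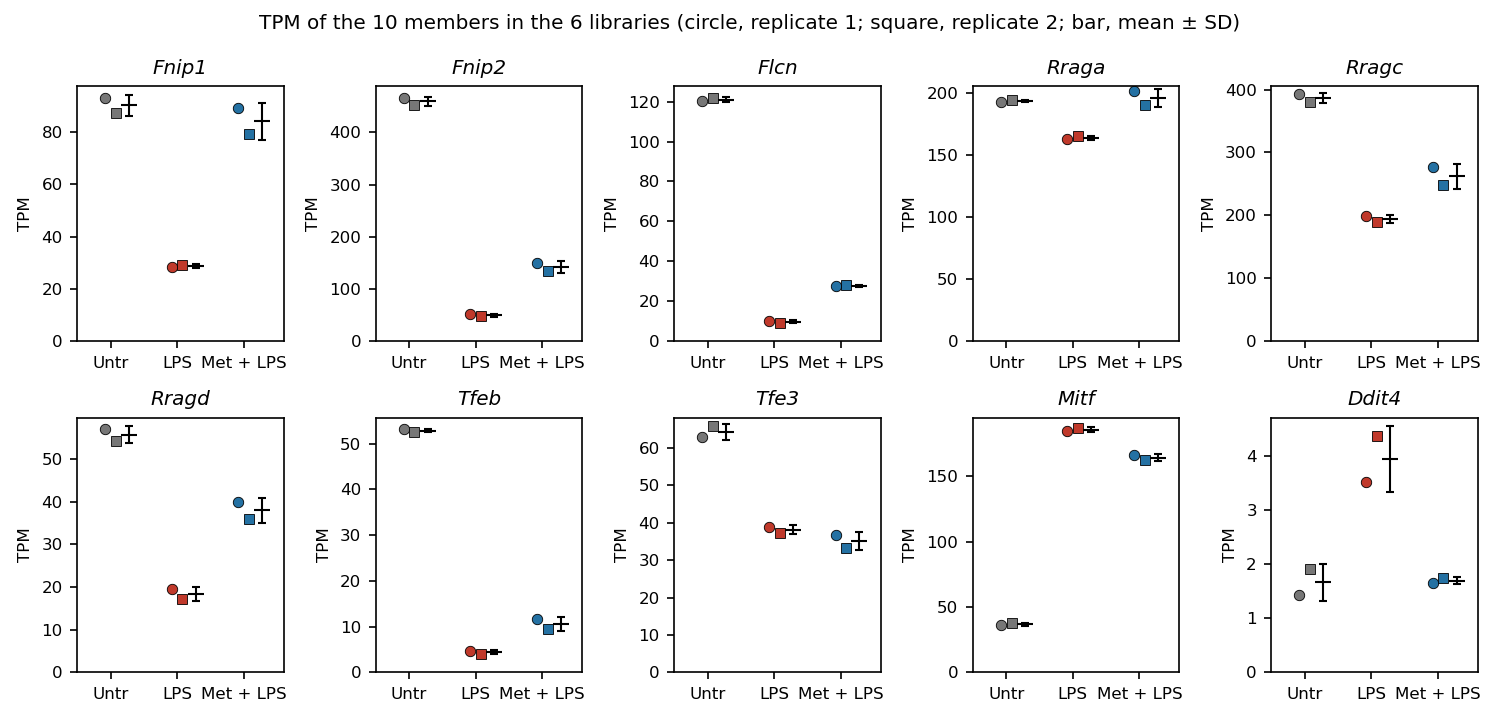
TPM (y axis, from 0) of each of the 10 genes in the 2 libraries of Untr, LPS and Met + LPS; circles are replicate 1, squares replicate 2, and the bar beside them is the mean with its SD. Flcn, Fnip2 and Tfeb are far lower in LPS than in Untr and lie between these groups in Met + LPS. Fnip1 is at 79.1 and 89.1 TPM in Met + LPS, and Mitf is high in all 4 stimulated libraries.

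The Rag genes moved less than their regulator. Rraga encodes RagA, the abundant partner in the A/B position, in a single-exon gene at chr4:86575668-86577285 (plus strand, ENSMUSG00000070934). It measured 193.4 and 194.2 TPM in Untr, 162.9 and 165.4 TPM in LPS, and 201.6 and 190.9 TPM in Met + LPS. LPS held the lowest libraries, and those of Met + LPS lay on both sides of Untr. The log2 fold change with LPS was -0.24 (SE 0.04, limma adjusted p = 0.00081) on the deposited scale, but 0.29 with median-ratio scaling and 0.23 with voom, so its direction depended on the scaling. For metformin on top of LPS it was 0.26 (SE 0.04, limma adjusted p = 0.0017), and without LPS replicate 1 this call was lost (0.25, limma adjusted p = 0.0124). That call was also lost in a fit without the mean-variance trend (limma adjusted p = 0.0123). Met + LPS vs. Untr gave 0.02 (limma adjusted p = 0.67), which was called at 0.57 with median-ratio scaling and turned to -0.02 without Met + LPS replicate 1.

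Rragc encodes RagC, a direct substrate of the folliculin complex (chr4:123917446-123936997, plus strand, ENSMUSG00000028646). Rragc stood at 392.8 and 380.5 TPM in Untr, 198.3 and 189.1 TPM in LPS, and 276.3 and 247.4 TPM in Met + LPS. Met + LPS lay between the other groups, with no overlap. On the log2 scale the LPS change was -0.99 (SE 0.06) (limma adjusted p = 7.20e-06), or -0.51 relative to all genes. For metformin on top of LPS it was 0.43 (SE 0.06, limma adjusted p = 0.0012), and this call was lost without LPS replicate 2 (0.40, limma adjusted p = 0.0110). Met + LPS vs. Untr gave -0.56 (limma adjusted p = 9.92e-05), which median-ratio scaling reduced to -0.01 (limma adjusted p = 0.86). An antisense gene, 4930535I16Rik, covers 7.90% of the Rragc exon bases, and strand use in the counting is not given in the sources used here, so reads there cannot be told apart.

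Rragd encodes RagD, known as a transcriptional target of the TFEB family (chr4:32983037-33022180, plus strand, ENSMUSG00000028278). It measured 57.1 and 54.2 TPM in Untr, 19.5 and 17.1 TPM in LPS, and 39.9 and 35.9 TPM in Met + LPS. The groups followed the same order as those of Rragc, without overlap. Its log2 fold change was -1.55 (SE 0.08) with LPS (limma adjusted p = 3.84e-06) and 1.01 (SE 0.08) for metformin on top of LPS (limma adjusted p = 0.00013). Met + LPS vs. Untr gave -0.54 (limma adjusted p = 0.00055). That value was -0.00 with median-ratio scaling (limma adjusted p = 0.98), and without Untr replicate 1 it was -0.51 (limma adjusted p = 0.0102).

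RagD made up 12.6% ± 0.149 (SD, n = 2) of the summed Rragc and Rragd TPM in Untr, 8.63% ± 0.449 (SD, n = 2) in LPS and 12.7% ± 0.0291 (SD, n = 2) in Met + LPS. Both LPS libraries were below the other 4, and Met + LPS overlapped Untr. In the A/B position Rraga made up 96.9% ± 0.13 (SD, n = 2), 98.1% ± 0.31 (SD, n = 2) and 99.0% ± 0.00752 (SD, n = 2) of the summed Rraga and Rragb TPM, so Rragb was minor in every library.

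Tfeb, which encodes the master activator of lysosome genes, gave the second largest fall. It lies at chr17:47737030-47792419 on the plus strand (ENSMUSG00000023990). Tfeb measured 53.1 and 52.6 TPM in Untr, 4.70 and 4.13 TPM in LPS, and 11.6 and 9.57 TPM in Met + LPS. Both untreated libraries were far above the rest, and LPS was below Met + LPS in every library. LPS gave a log2 fold change of -3.31 (SE 0.10) (limma adjusted p = 3.41e-07), or -2.83 relative to all genes. Metformin on top of LPS gave 1.09 (SE 0.10, limma adjusted p = 0.00023). Met + LPS remained below Untr, with a log2 fold change of -2.22 (limma adjusted p = 2.10e-06).

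Tfe3 encodes a close relative with overlapping targets, on the X chromosome (chrX:7762560-7775202, plus strand, ENSMUSG00000000134). It stood at 62.8 and 65.8 TPM in Untr, 39.0 and 37.3 TPM in LPS, and 36.8 and 33.3 TPM in Met + LPS. Untreated libraries were the highest, and those of Met + LPS lay just under those of LPS. With LPS the log2 fold change was -0.74 (SE 0.06, limma adjusted p = 3.22e-05), and median-ratio scaling brought it to -0.21 (limma adjusted p = 0.0141), which was not called. Tfe3 was the only one of the 10 genes not called for metformin on top of LPS, at -0.12 (SE 0.06, limma adjusted p = 0.15).

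Mitf encodes the family member named for its role in pigment cells, which also acts in osteoclasts and mast cells (chr6:97807052-98021349, plus strand, ENSMUSG00000035158). It went the opposite way to Tfeb and Tfe3 with LPS, at 36.0 and 37.5 TPM in Untr, 184.3 and 186.7 TPM in LPS, and 166.1 and 162.1 TPM in Met + LPS. All 4 stimulated libraries were far above the untreated ones, and LPS was slightly above Met + LPS. The log2 fold change was 2.31 (SE 0.04) with LPS (limma adjusted p = 2.37e-08) and 2.13 in Met + LPS vs. Untr (limma adjusted p = 4.47e-08). For metformin on top of LPS it was -0.18 (SE 0.04, limma adjusted p = 0.0080), a call that was lost without any 1 of the 6 libraries (limma adjusted p from 0.0154 to 0.0423). Isoforms of Mitf, Tfeb and Tfe3, for which the annotation lists 8, 15 and 14 transcripts, could not be told apart at the gene level.

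The family as a whole changed in make-up, and these shares do not depend on the scaling between libraries. Tfec, the remaining family member, which is mostly found in macrophages, measured 11.0 and 11.7 TPM in Untr, 178.3 and 162.2 TPM in LPS, and 149.7 and 152.0 TPM in Met + LPS. Its log2 fold change with LPS was 3.79 (SE 0.05, limma adjusted p = 1.64e-08). Tfeb made up 32.0% ± 0.868 (SD, n = 2) of the summed TPM of the 4 family genes in Untr, 1.11% ± 0.07 (SD, n = 2) in LPS and 2.93% ± 0.357 (SD, n = 2) in Met + LPS. Tfe3 went from 38.9% to 9.57% and 9.72%. Mitf and Tfec together carried the rest, Mitf with 22.2%, 46.6% and 45.5% and Tfec with 6.87%, 42.7% and 41.8% in the same order. The summed TPM of the family was 165.2 in Untr, 398.3 in LPS and 360.6 in Met + LPS. Thus Tfeb and Tfe3 led in untreated cells, and Mitf and Tfec in all stimulated libraries.

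**Figure D3:**
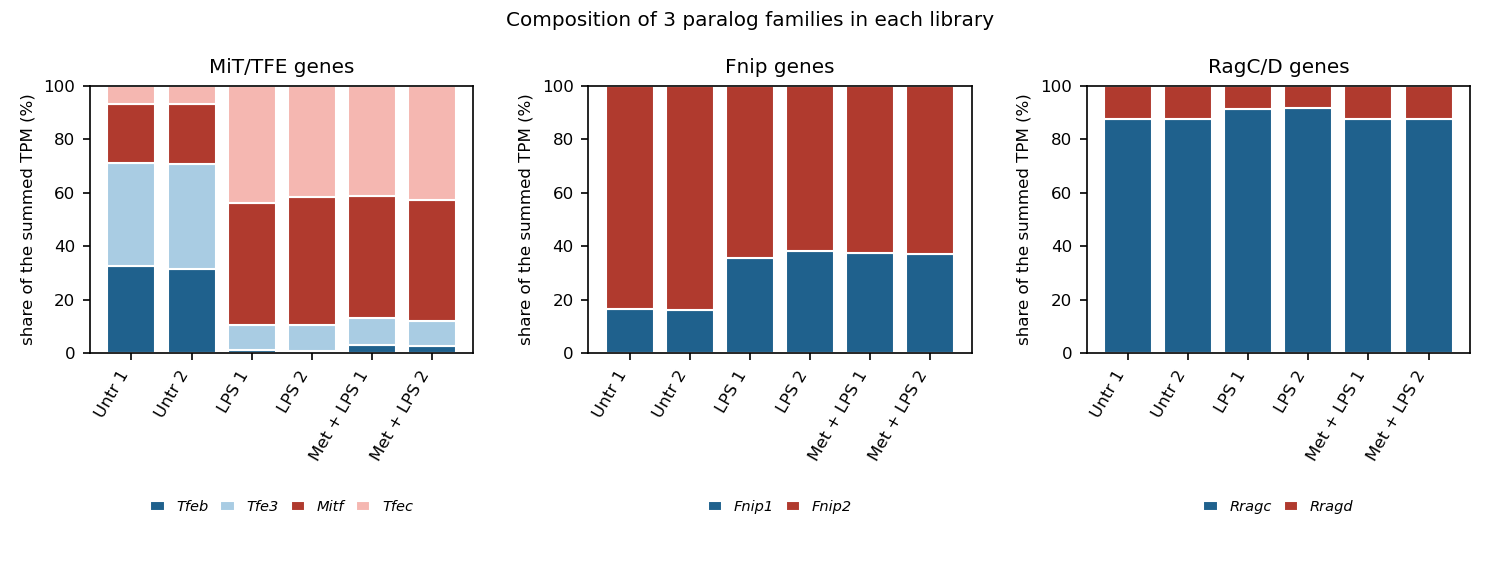
Share (%) of the summed TPM that each paralog holds in each of the 6 libraries, for the MiT/TFE genes, the Fnip genes and the genes of RagC and RagD; each bar is 1 library and adds to 100%. Tfeb and Tfe3 lead in the Untr bars and Mitf and Tfec in the 4 others, Fnip1 widens from 16.4% to 36.9% with LPS, and Rragd narrows from 12.6% to 8.63% in the LPS bars only.

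Ddit4 encodes REDD1, which restrains mTORC1 through the TSC complex (chr10:59949669-59951834, minus strand, ENSMUSG00000020108). It was scarce, at 1.42 and 1.91 TPM in Untr, 3.52 and 4.37 TPM in LPS, and 1.66 and 1.74 TPM in Met + LPS. These values rest on 19 and 24, 47 and 56, and 22 and 27 reads. Both LPS libraries were above all others, and the remaining groups overlapped. The exact 95% Poisson interval of LPS replicate 1 ran from 34.5 to 62.5 reads and overlapped that of Met + LPS replicate 2, from 17.8 to 39.3 reads, and such intervals cover counting error only. The log2 fold change was 0.89 (SE 0.14) with LPS (limma adjusted p = 0.00089) and -0.87 (SE 0.14) for metformin on top of it (limma adjusted p = 0.0028). The latter call was lost without LPS replicate 2 (-0.74) and without Met + LPS replicate 1 or 2 (-0.85 and -0.89). That call was also lost when no filter on low values was applied. Met + LPS vs. Untr gave 0.02 (limma adjusted p = 0.89), and -0.11 without Untr replicate 1. The pseudocount of 1 TPM shrinks these changes, and every other gene of the 10 had at least 171 reads in each library.

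The order of levels was Fnip2, Rragc, Rraga, Flcn, Fnip1, Tfe3, Rragd, Tfeb, Mitf and Ddit4 in Untr, on the length-corrected TPM scale. No neighbours in that order overlapped in their libraries, though Rragd and Tfeb were close. With LPS it became Rragc, Mitf, Rraga, Fnip2, Tfe3, Fnip1, Rragd, Flcn, Tfeb and Ddit4, with overlap between Tfeb and Ddit4. In Met + LPS it was Rragc, Rraga, Mitf, Fnip2, Fnip1, Rragd, Tfe3, Flcn, Tfeb and Ddit4, with overlap between Rragd and Tfe3. Mitf thus stood 9th in untreated cells and 2nd after LPS, while Flcn went from 4th to 8th.

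The genes with the profiles most like those of the 4 widest-ranging genes were found by the Euclidean distance between mean-centred log2(TPM + 1) values over the 6 libraries. For Flcn they were Fam83f (distance 0.277), 1700017B05Rik (0.283) and Tbc1d2 (0.293). Fam83f averaged 44.7, 3.30 and 11.0 TPM in Untr, LPS and Met + LPS. The genes nearest to Tfeb were Trp53inp1 (0.342), which encodes a stress-induced autophagy regulator, Per1 (0.349), which encodes a circadian clock repressor, and 1700017B05Rik (0.383). Impact (0.259), an inhibitor of the amino acid sensing kinase GCN2, Cipc (0.295), a clock-interacting factor, and Fam83f (0.346) were nearest to Fnip2. Impact averaged 88.0, 10.1 and 31.2 TPM in the same order of groups. Within the 10 genes, Flcn was at 0.407 from Tfeb and 0.450 from Fnip2. Mitf had far closer neighbours, Rhbdf2 (0.0616), a regulator of TNF shedding, Htra1 (0.0769), a secreted protease, and Fam102b (0.0890). Rhbdf2 averaged 39.9, 198.3 and 176.1 TPM. The groups share their libraries with all comparisons above, so these distances are a description.

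The other genes of the pathway were taken from 10 lists with 67 genes in all, of which 65 were tested, since Ddit4l and Ppargc1a were under 1 TPM in every library. With LPS 7 were higher and 50 lower (10.8% and 76.9%), beside 16.2% and 60.1% of all tested genes. The median log2 fold change was -0.53 beside -0.48 over all genes. With median-ratio scaling the split was 20 higher and 22 lower. For metformin on top of LPS the median was 0.11 beside -0.03 over all genes. Here 23 were higher, among them all 8 ATF4-linked stress genes, and 9 lower (35.4% and 13.8%), beside 14.5% and 18.0% of all tested genes. That total of 32 was 18 to 21 without any 1 of the 6 libraries. The 10 genes described above had medians of -1.27 and 0.72 in these comparisons. The shares over all tested genes at the same scaling are the background to the counts of each list below.

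**Figure D4:**
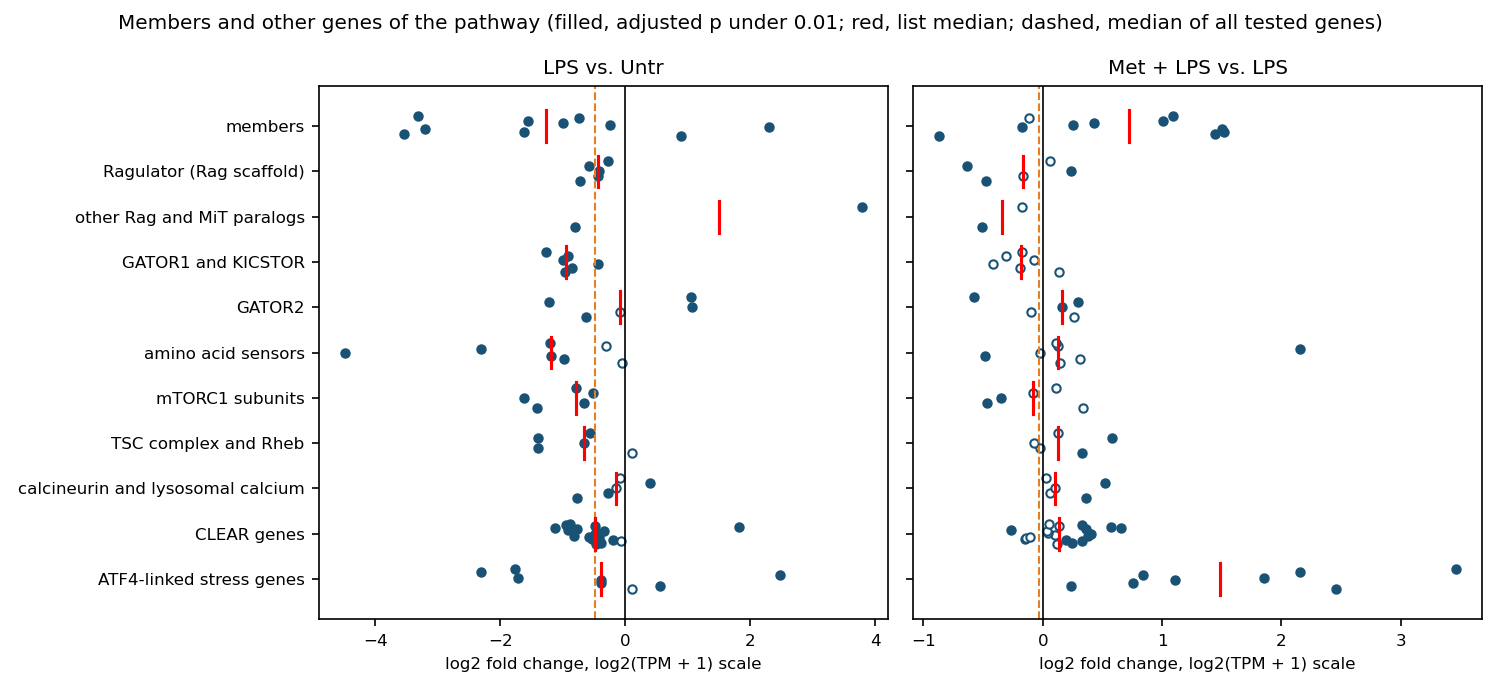
Log2 fold changes on the log2(TPM + 1) scale (x axis) of the 10 genes (row "members") and of the other pathway genes by list (y axis), for LPS vs. Untr and for Met + LPS vs. LPS. Each point is a gene, filled where the adjusted p is under 0.01, red bars are list medians, and the dashed line is the median of all tested genes; after metformin all 8 ATF4-linked genes lie to the right of 0, while the Ragulator genes lie on both sides.

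The 5 Ragulator genes, whose products anchor the Rags to the lysosome, were all called lower with LPS on the deposited scale, but with median-ratio scaling none was called lower and 1 was called higher. Lamtor1 (-0.72), Lamtor4 (-0.58) and Lamtor2 (-0.43) had the largest log2 fold changes, and that of Lamtor2 turned to 0.10 with median-ratio scaling. With metformin on top of LPS, Lamtor4 (-0.64) and Lamtor1 (-0.47) fell, Lamtor3 (0.23) rose, and the other 2 were not called. Of the 2 remaining paralogs, Rragb fell with LPS (-0.80, lost with median-ratio scaling at a limma adjusted p of 0.024) and was lower again with metformin on top of LPS (-0.51, lost with voom at a limma adjusted p of 0.016), while Tfec rose with LPS, as given above.

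GATOR1, which inactivates RagA and RagB, and its anchor KICSTOR were called lower with LPS in 6 of 6 genes, among them Nprl2 (-1.003) and Depdc5 (-0.97). With median-ratio scaling 4 of the 6 remained called lower, including Nprl2 and Depdc5. None of the 6 was called for metformin on top of LPS by limma on log2(TPM + 1), where 2 were lower at an unadjusted p under 0.05, and voom called 2 lower. GATOR2, which opposes GATOR1, split within the complex, with 2 genes higher and 2 lower with LPS, or 3 higher and 1 lower with median-ratio scaling. Wdr24 fell with LPS (-1.21), while Seh1l (1.06), which is also a nuclear pore gene, and Wdr59 (1.06) rose. Metformin on top of LPS moved Wdr59 by -0.58, Wdr24 by 0.30 and Seh1l by 0.16, all called. Wdr24 and Seh1l were near the cut-off (limma adjusted p = 0.0094 and 0.0065).

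Of the 7 amino acid sensor genes, 5 were lower with LPS and 2 were not called, against 4 lower and 1 higher with median-ratio scaling. Sesn1, a leucine-linked sestrin, fell from 185.7 and 186.6 TPM in Untr to 7.36 and 7.40 TPM in LPS, and stood at 7.94 and 6.61 TPM in Met + LPS. Its log2 fold change with LPS was -4.48 (SE 0.08, limma adjusted p = 3.51e-08), while metformin on top of LPS gave -0.02 (limma adjusted p = 0.84). Sesn2, the leucine sensor that ATF4 induces, went from 25.2 and 26.6 TPM to 4.50 and 4.34 TPM with LPS and was at 26.0 and 20.7 TPM in Met + LPS. So Sesn2 fell with LPS (-2.31) and was higher with metformin (2.16), whereas Sesn1 was low in all 4 stimulated libraries. Slc38a9, a lysosomal arginine sensor, fell with LPS (-1.20), and Castor2, of the cytosolic arginine sensor family, was lower with metformin than with LPS alone (-0.49).

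The 5 mTORC1 subunit genes were all called lower with LPS on the deposited scale, and 3 remained called lower with median-ratio scaling. They were led by Mlst8 (-1.63), Akt1s1 (-1.42) and Rptor (-0.79). With metformin on top of LPS 2 fell, Deptor (-0.47) and Mlst8 (-0.35, limma adjusted p = 0.0078). Of the 5 tested genes of the TSC complex and Rheb, which DDIT4 acts through, 4 were lower with LPS on the deposited scale, against 1 higher, Rheb (0.63), and 2 lower with median-ratio scaling. The lower genes were led by Tsc1 (-1.40), Rhebl1 (-1.40) and Tbc1d7 (-0.67, lost with median-ratio scaling). Metformin on top of LPS raised 2, Tsc1 (0.58) and Rheb (0.33).

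Calcineurin dephosphorylates TFEB when the lysosomal channel encoded by Mcoln1 releases calcium. Of these 5 genes 1 was higher and 2 were lower with LPS on the deposited scale, against 4 higher and 1 lower with median-ratio scaling. Mcoln1 fell (-0.78), Ppp3cc rose (0.40) and Ppp3ca fell (-0.27), the last turning to 0.25 with median-ratio scaling. With metformin on top of LPS, Ppp3cc (0.52) and Mcoln1 (0.36) were higher.

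CLEAR genes are targets of the TFEB family. Of the 19 tested, 1 was higher and 17 were lower with LPS, with a median log2 fold change of -0.48, the same as that of all genes. With median-ratio scaling the split was 5 higher and 6 lower. The strongest changes were those of Sqstm1 (1.82), an autophagy receptor that NRF2 also induces, Neu1 (-1.13), a sialidase, and Uvrag (-0.94), an autophagy factor. With metformin on top of LPS 9 were higher and 2 lower, with a median of 0.13. Neu1 (0.66), Sqstm1 (0.57) and Gpnmb (0.41), a melanosome and lysosome glycoprotein, led the rise.

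The ATF4-linked stress genes, which hold Sesn2 as well, were 2 higher and 5 lower of 8 with LPS on the deposited scale, against 4 higher and 3 lower with median-ratio scaling. With metformin on top of LPS 8 of 8 were higher, beside 14.5% of all tested genes, with a median log2 fold change of 1.48. This list, like the others, was chosen with earlier results of these data known. Ppp1r15a (2.47) rose and Sesn2 (-2.31) and Trib3 (-1.76) fell with LPS. Trib3, a pseudokinase, went from 4.88 and 4.26 TPM in LPS to 58.9 and 62.1 TPM in Met + LPS, the largest change of the list (3.47, SE 0.07, limma adjusted p = 4.41e-06). Asns, asparagine synthetase, followed with 2.46, and with LPS it was not called as deposited (0.10) but higher with median-ratio scaling (0.63). Ddit4, which ATF4 is also known to induce, was lower in Met + LPS than in LPS, as given above.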

How the data were processed

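RNA-seq libraries of BMDMs in 3 groups of 2 were analysed, grouped by their labelled treatment. The authors deposited TPM for 54532 genes, without pooling. Per the labels and the study's methods, poly-A libraries were aligned to GRCm38 with STAR 2.6.1d and counted with featureCounts of Subread 1.6.3, with SAMtools 1.9. How counts became TPM is not given in the sources used here. TPM sums to the same total in each library, so total RNA per cell is not visible.

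The 12755 genes that reached 1 TPM in 2 or more libraries were tested with limma 3.58 in R 4.3 on log2(TPM + 1). The 6 libraries shared a fit with a mean-variance trend and no covariate, which left 3 residual degrees of freedom, and p-values were adjusted by Benjamini-Hochberg. Fold changes on this scale understate changes of low genes. Calls needed an adjusted p under 0.01. The DESeq2 test of the study was not run on TPM. In simulated data for LPS vs. Untr over 12257 genes, 87 of 100 genes changed by a log2 fold of 1 and 95 of 100 changed by 2 were recovered, with 8 false calls. The simulation used a fixed dispersion, the same for all genes, and changed few genes, equally up and down. It held no shift over all genes such as that seen with LPS, so its false calls do not carry over to these data.

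Reads were recovered as TPM times GENCODE exon length in whole multiples of a library step (96.2% to 96.4% of values above 0 came out whole, within 0.01 reads). They served for voom with TMM scaling. Other alternatives were another pseudocount, other filters, median-ratio scaling, the compared groups alone, no trend, an adjusted p of 0.05, the replicate block, and leaving out each library. Of the 31-base words in each gene's exons, 92.1% (Rragc) to 100% occurred in no other gene.

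The members, lists and motifs were chosen with earlier results of these data known. Genes named from the lists are up to 3 per list and comparison with the largest absolute log2 fold change among those called, and for the 4 members of widest range the 3 nearest profiles. A gene that this rule names is not reported here. Gatsl3 and Gatsl2 were read as Castor1 and Castor2 through RefSeq synonyms. Mcoln1 and Sesn2 stand in 2 lists each. Sequences are RefSeq's, and protein sequences were not used here.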

Additional observations from a re-analysis of the deposited data

How the results depend on the processing

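Of the results for the 10 genes, the direction turned with scaling for Rraga in LPS vs. Untr (-0.24 as deposited, 0.29 with median-ratio scaling, 0.23 with voom) and for Fnip1 in Met + LPS vs. Untr (-0.10 as deposited, 0.44 and 0.40). Leaving out each library gave -0.0214 to 0.0569 for Rraga and -0.11 to 0.15 for Ddit4 in Met + LPS vs. Untr, with a lone library assumed to vary like the other groups. The cause was not tested. The counts of members called ranged from 9 to 10 in LPS vs. Untr, 6 to 9 in Met + LPS vs. LPS and 6 to 7 in Met + LPS vs. Untr over all alternatives, and those past the study's cut-offs stayed at 4 and were 5 to 6. The 32 other pathway genes called for metformin on top of LPS were 18 with the compared groups only, 21 without a trend, 19 without a filter and 18 to 21 without 1 library. Mitf lost its call in that comparison under 11 alternatives. With a minimum of 5 TPM, Ddit4 could not be tested. Same-numbered libraries did not deviate together (r of -0.00, 0.03 and 0.01). With 2 libraries a group this cannot show whether they were handled together, which the labels do not say. The fit with the replicate block called 8 members and 28 other pathway genes in Met + LPS vs. LPS. With 2 libraries a group and 19 to 56 reads, depth limits Ddit4 the most.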
